A study of Xenopus laevis with 28 samples.

Results

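The genes described here are those of motile cilia and of intraflagellar transport in *Xenopus laevis*. They were taken by name from the deposited table: axonemal dyneins (dnah, dnai and dnal), tektins (tekt), radial spoke genes (rsph), central apparatus genes (spag6, spag16 and spag17), intraflagellar transport genes (ift), Bardet-Biedl genes (bbs) and the regulators mcidas, ccno and rfx. The rule found 61 of the 45831 gene models, with 15 axonemal dyneins, 5 tektins, 8 radial spoke and central apparatus models, 14 IFT models, 10 BBS models and 9 regulators. No model in the table is named mcidas, so the regulators are the 2 models of ccno and 7 of the rfx family. This frog is an allotetraploid, and 33 of the 61 names end in L for the long and 20 in S for the short chromosome set.

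Cilia are microtubule-based projections that are built from a basal body by intraflagellar transport, in which IFT-B particles move cargo toward the tip and IFT-A particles return it. The BBSome is a coat-like complex that moves membrane proteins in and out of the cilium. Motile cilia also carry dynein arms, radial spokes and a central apparatus that produce and pattern the beat, and tektins line the inside of their doublet microtubules. In frog embryos motile cilia are known from the multiciliated cells of the larval epidermis, from the gastrocoel roof plate and from the neural floor plate. Multiciliated cells are specified by gmnc and mcidas, which act through myb, foxj1, rfx2 and ccno.

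Whole eggs and embryos of the J strain came from 2 clutches, labelled Taira and Ueno, and their polyA RNA was sequenced without strand information. Library titles also carry a different name and number for each clutch. Differences between the clutches therefore cannot be told apart from other differences between these 2 sets of libraries. The 20 libraries compared are the unfertilized egg and the embryos of stages 8 and 9 (blastula), 10.5 and 12 (gastrula), 15 and 20 (neurula), and 25, 30 and 35 (tailbud), with 1 library per clutch at each stage (n = 2). Also given are 3 oocyte libraries and 3 libraries of a second series from Ueno, without replicates, and the stage 40 tadpole library from Taira. The library labelled stage 40 Ueno was left out since its profile is close to that of an egg, except in 1 alternative run that added both stage 40 libraries. Its spag6.L, dnai2.S and rfx4.S were listed at 0 and its ccno.L was at 186 TPM, against 181 TPM in the Ueno egg. Values are TPM, the abundance of a transcript among all transcripts of its library, scaled for transcript length, so levels of different genes can be set side by side. Read counts cannot be had from TPM, and the depth behind each value is unknown.

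Tests were made with limma on log2(TPM + 1) over 27777 gene models with TPM of at least 1 in at least 2 libraries, with the clutch as a block, and a call means a Benjamini-Hochberg adjusted p under 0.05. Fold changes are on the log2(TPM + 1) scale, which understates the change of low genes, and ± after them is the standard error. The filter was passed by 53 of the 61 models. The other 8 were bbs2.Lp, bbs4.Lp, rsph6a.Sp and spag16.S, which were listed at 0 in all libraries, and dnah6.Lp, dnah11-like.1.S, dnah11-like.2.L and dnah11-like.2.S, which were near 0. Of the 53 models, 50 differed among the 10 stages by limma's F-test, against 91.4% of all models tested. The number of gene models above 0 in these libraries ran between 21243 (stage 35 Ueno) and 32441 (stage 25 Taira). In whole embryos, fewer cells of a type and less RNA per cell cannot be told apart.

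**Figure D1:**
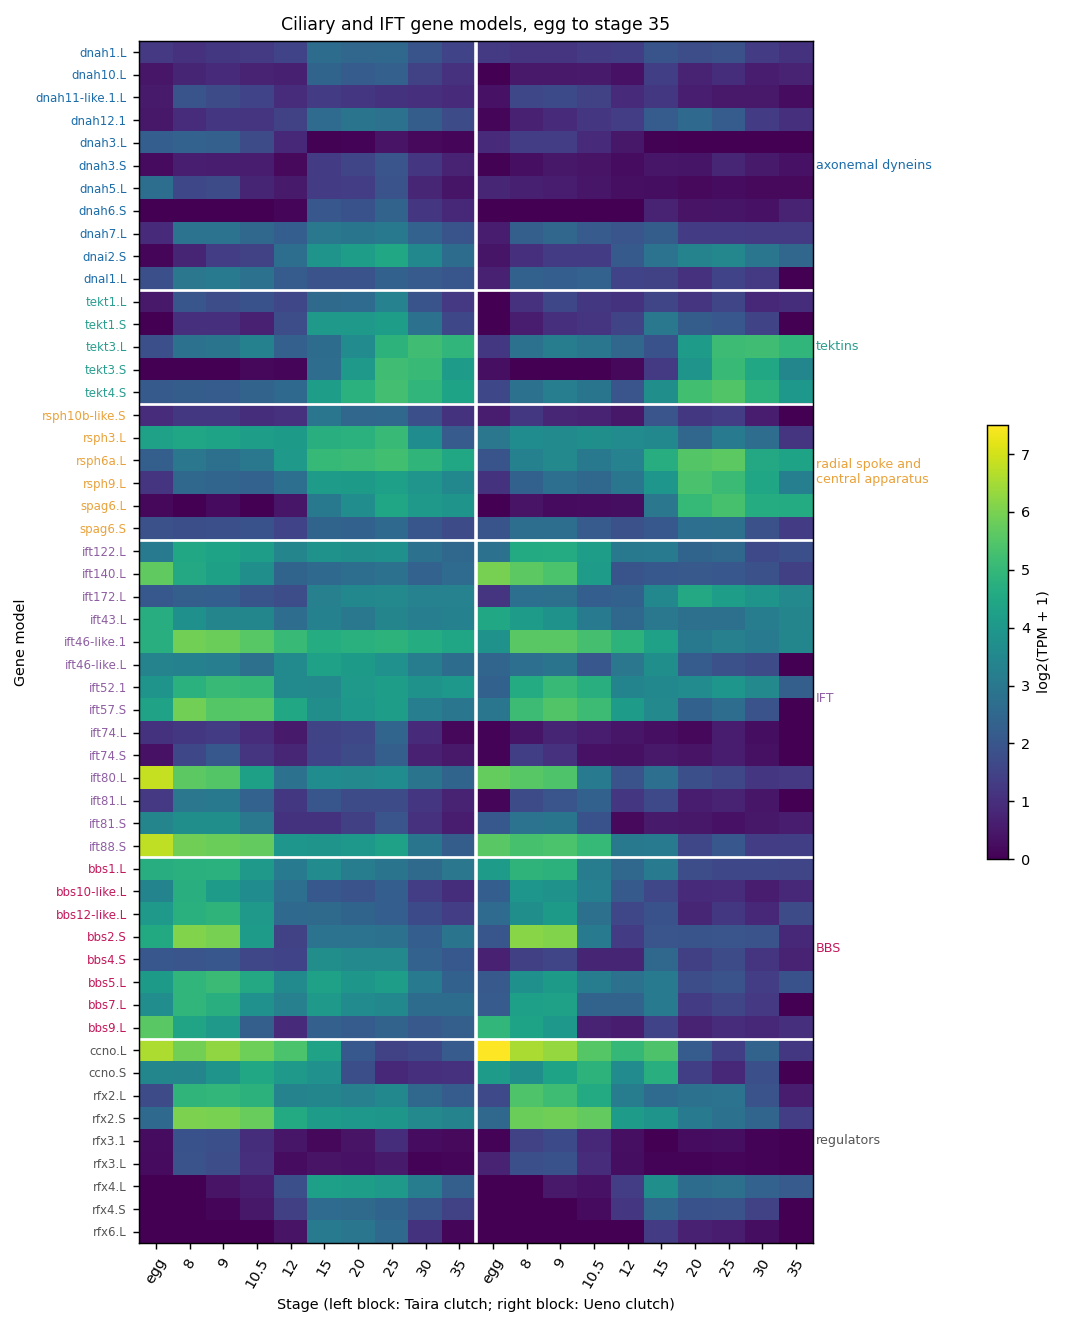
Heat map of log2(TPM + 1) of the 53 models that passed the filter (rows, grouped and coloured by role) in each library (columns, egg to stage 35, the Taira clutch in the left block and the Ueno clutch in the right). Most IFT, BBS and ccno rows are brightest from the egg to stage 10.5, and most tektin, radial spoke and central apparatus rows are brightest from stage 15 on.

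Most of the transport genes, and none of the dyneins, had a TPM of at least 2 in both eggs. Dynein heavy chains were low at all stages, so a fixed threshold of 2 TPM weighs more on them. With a TPM of at least 2 in both eggs as the definition of maternal, 25 of the 53 models were maternal (47.2%), against 45.3% of all models tested, so the whole list is near the background. The role groups differed in their counts: 10 of 14 IFT models and 7 of 8 BBS models were maternal, as were 4 of 9 regulators, 3 of 6 radial spoke and central apparatus models and 1 of 5 tektins. None of the 11 tested axonemal dyneins met the definition. The dynein with the highest mean over both eggs was dnah5.L, an outer arm heavy chain, with 5.50 TPM in Taira and 0.75 TPM in Ueno, where dnah1.L had 1.40 TPM.

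Cyclin O, which multiciliated cells use to amplify centrioles, had the highest mean level of these models over both eggs. Its L copy ccno.L (Xelaev18008286m) had 94.8 TPM in the Taira egg and 181 TPM in the Ueno egg. In Taira the IFT-B subunits ift80.L and ift88.S were above it, with 115 and 111 TPM in the Taira egg and 52.6 and 47.3 TPM in the Ueno egg, and the IFT-A subunit ift140.L had 49.7 and 61.2 TPM in the Taira and Ueno eggs. Among the BBSome subunits bbs9.L was highest, with 47.1 TPM in the Taira egg and 30.6 TPM in the Ueno egg. The egg levels of ift80.L and ift88.S thus differed between the clutches by more than the levels of ift140.L did.

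At stage 9, 24 of the 53 models were called higher and 2 lower than in the egg, against 37.7% and 4.59% of all models tested. The median change over all models was 0.47 on the log2 scale, and that of the 53 models was 0.74. With median-of-ratios scaling the median over all models was 0.00 and the counts became 8 higher and 10 lower. Over all 27777 models tested they were 4652 higher and 6014 lower with that scaling. The share of higher calls among all calls fell to 43.6%, against 89.2% as deposited. The count of higher calls therefore depends on how the libraries are scaled.

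The regulator rfx2 was low in the egg and high in the blastula. It is a transcription factor known in Xenopus to activate ciliary genes in multiciliated cells. Its S copy rfx2.S (Xelaev18009836m) had 63.4 TPM in Taira and 58.5 TPM in Ueno at stage 9, against 4.94 TPM in the Taira egg and 4.71 TPM in the Ueno egg. Both clutches were higher at stage 9 (3.41 ± 0.42, limma adjusted p = 2.85e-05). The L copy had 30.2 and 35.1 TPM at stage 9 in Taira and Ueno, against 2.34 and 2.18 TPM in their eggs. The BBSome subunit bbs2.S (Xelaev18024790m) was also higher than in the egg, with 62.0 and 66.6 TPM at stage 9 in Taira and Ueno against 22.6 and 3.04 TPM in their eggs (2.74 ± 0.55, limma adjusted p = 0.000986). It was already at 66.48 and 71.85 TPM at stage 8 in Taira and Ueno, and had 68.84 TPM in the stage 5-6 oocytes of Ueno. Whether the amount of RNA or its recovery by polyA selection changed was not tested. The IFT-A subunit ift43.L and bbs9.L were the models called lower, by -0.97 ± 0.29 and -1.26 ± 0.40.

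Between the blastula and the end of gastrulation many transport genes fell. At stage 12, 23 of the 53 models were called lower and 3 higher than at stage 9, against 36.1% and 13.4% of all models tested. All but 1 of the 8 BBS models (7) and 9 of 14 IFT models were lower, as were 5 of 9 regulators and 2 of 11 dyneins, while 0 of 6 radial spoke and central apparatus models and 0 of 5 tektins were called in either direction. The median over all models was -0.37 as deposited and 0.05 with median-of-ratios scaling. Under that scaling 10 of the 53 models were lower and 6 higher, against 5522 and 6431 of all 27777 models tested. The lower ones of the 53 then included 4 of the 8 BBS and 4 of the 14 IFT models. At the same time 0 dyneins were lower and 3 were higher, and 1 radial spoke and central apparatus model was higher. With quantile normalization 4 BBS and 5 IFT models were lower, and 1 dynein was higher and 1 lower.

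The BBSome subunit bbs2.S had 1.81 TPM in Taira and 1.53 TPM in Ueno at stage 12, against 62.0 and 66.6 TPM at stage 9, the largest fall of the 53 models (-4.61 ± 0.55, limma adjusted p = 1.00e-05). For bbs9.L the stage 12 levels were 0.90 TPM in Taira and 0.52 TPM in Ueno, against 15.6 and 15.0 TPM at stage 9 (-3.26 ± 0.40). The IFT-B subunit ift80.L had 6.13 and 2.78 TPM at stage 12 in Taira and Ueno, against 44.2 and 42.1 TPM at stage 9 (-3.09 ± 0.43). In these models both clutches were lower at stage 12. Smaller falls were called for ift81.S (-2.67 ± 0.33), ift140.L (-2.64 ± 0.50), ift88.S (-2.11 ± 0.45) and the chaperonin-like bbs12-like.L (-2.41 ± 0.38). The BBSome subunit bbs1.L also fell, with 7.57 and 4.77 TPM at stage 12 in Taira and Ueno, against 26.67 and 27.45 TPM at stage 9. Among the regulators rfx2.L fell by 1.80 ± 0.40, rfx2.S by 1.59 ± 0.42, rfx3.L by 1.56 ± 0.24 and rfx3.1 by 1.37 ± 0.21.

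The models called higher at stage 12 than at stage 9 were rfx4.L, rfx4.S and dnai2.S. Factor rfx4 is known for its role in the cilia of the neural tube, and dnai2 is an intermediate chain of the outer dynein arm. The dnai2.S model (Xelaev18046434m) had 5.54 TPM in Taira and 3.35 TPM in Ueno at stage 12, against 1.56 and 1.48 TPM at stage 9 (1.08 ± 0.35, limma adjusted p = 0.0199). It was the only dynein called higher over this interval.

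In the neurula many structural genes of the motile axoneme rose. At stage 20, 15 of the 53 models were called higher and 3 lower than at stage 12 (28.3% and 5.66%), against 19% and 18.4% of all models tested. Higher were 4 of 6 radial spoke and central apparatus models, 3 of 5 tektins, 3 of 11 dyneins, 3 of 9 regulators, 1 of 8 BBS models and 1 of 14 IFT models. With median-of-ratios scaling 6 dyneins were higher and 0 lower, and with quantile normalization 2 were higher and 1 lower. Lower as deposited were ccno.L, ccno.S and the chaperonin-like bbs10-like.L. Without the stage 20 library of Taira fewer of the 53 were higher and more were lower, while over all models tested fewer were called in either direction. With both stage 40 libraries added, 1 of which is the egg-like one, 7 of the 53 were higher, against 2359 of 28196 models tested.

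Stage 15 was also compared with stage 12, a comparison added after the data had been seen. Again 15 of the 53 models were called higher and 0 lower, against 12.6% and 10.6% of all models tested, and 13 were called higher at both stages. Dyneins gave 3 of these calls, tektins 3, radial spoke and central apparatus models 4, regulators 3, IFT 1 and BBS 1. Only at stage 15 were dnah1.L and tekt1.S called, and only at stage 20 dnai2.S and tekt3.L, which is a difference of calls and not of tested changes. Fewer of the 53 were called higher without the stage 15 library of Taira, or without the stage 12 library of either clutch. Higher calls over all models tested fell in these runs too.

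**Figure D2:**
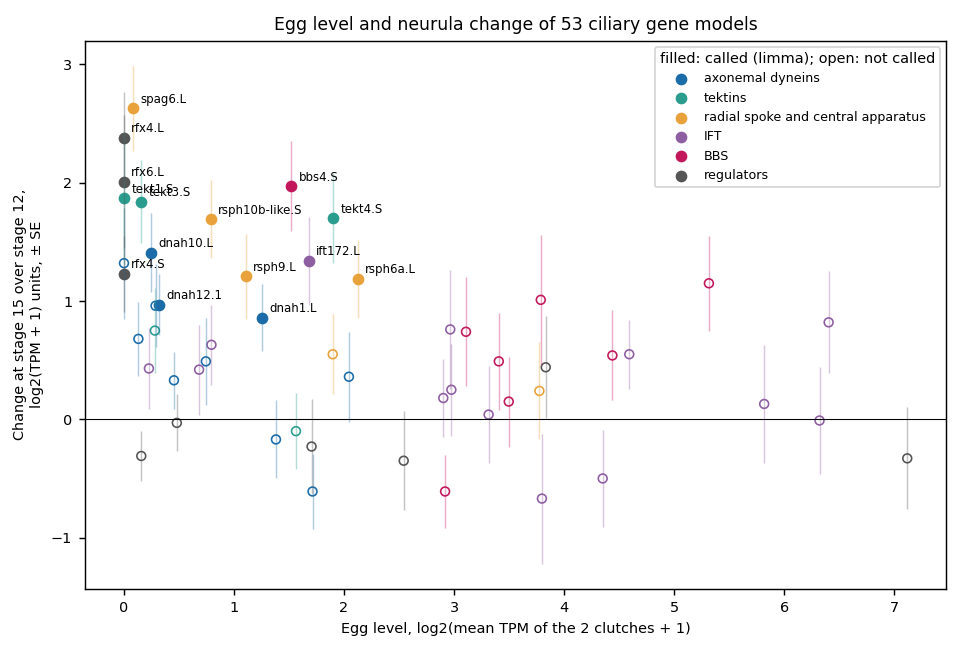
Change at stage 15 over stage 12 (y axis, log2(TPM + 1) units, bars are standard errors of the limma fit) against the egg level (x axis, log2 of the mean TPM of the 2 clutches + 1) for the 53 models, coloured by role; filled points were called. The 15 filled points lie at the left, where egg levels are low, and the IFT and BBS models with high egg levels are open.

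The L copy of the central apparatus gene spag6 and the S copy of tekt3 had the largest changes of the 53 models at stage 20 over stage 12. The model spag6.L (Xelaev18030785m) had 11.8 TPM in Taira and 31.6 TPM in Ueno at stage 20, against 0.36 and 0.22 TPM at stage 12 (3.99 ± 0.36, limma adjusted p = 2.64e-06). At stage 15 its levels were 7.13 and 6.80 TPM in Taira and Ueno, so both clutches were already well above stage 12. The tektin model tekt3.S (Xelaev18046805m) had 15.6 TPM in Taira and 13.7 TPM in Ueno at stage 20, against 0.10 and 0.12 TPM at stage 12 (3.82 ± 0.35, limma adjusted p = 3.08e-06). For tekt4.S (Xelaev18047762m) the levels were 26.9 and 36.8 TPM at stage 20 in Taira and Ueno, against 4.93 and 2.96 TPM at stage 12 (2.74 ± 0.38).

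Radial spoke head genes rose in both clutches. The levels of rsph9.L were 15.97 TPM in Taira and 39.9 TPM in Ueno at stage 20, against 5.73 and 6.67 TPM at stage 12 (1.87 ± 0.36, limma adjusted p = 0.00114). Those of rsph6a.L were 34.0 and 43.9 TPM at stage 20 in Taira and Ueno, against 15.3 and 9.06 TPM at stage 12 (1.63 ± 0.33). The calls for rsph10b-like.S (1.06 ± 0.33) rested on lower levels, of 4.53 and 1.32 TPM at stage 20 in Taira and Ueno against 1.08 and 0.41 TPM at stage 12. The spoke stalk gene rsph3.L was not called: it had 26.8 TPM in Taira but 4.61 TPM in Ueno at stage 20, against 16.2 and 11.4 TPM at stage 12.

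Among the dyneins, dnai2.S had 17.5 TPM in Taira and 9.35 TPM in Ueno at stage 20, against 5.54 and 3.35 TPM at stage 12 (1.37 ± 0.35, limma adjusted p = 0.00785). The inner arm heavy chains dnah12.1 (1.29 ± 0.26) and dnah10.L (0.95 ± 0.33) were also called. The heavy chain dnah6.S was nearly silent before the neurula, with at most 0.08 TPM up to stage 12, and had 3.09 TPM in Taira and 0.65 TPM in Ueno at stage 15, but it was not called. Dynein heavy chains stayed low throughout, and none of them reached 8 TPM in any library, while dnai2.S reached 21.5 TPM at stage 25 in Taira.

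Only 2 of the 22 tested IFT and BBS models were called higher at stage 20 than at stage 12. The IFT-B subunit ift172.L (Xelaev18028445m) had 10.3 TPM in Taira and 21.9 TPM in Ueno at stage 20, against 2.41 and 4.00 TPM at stage 12 (1.96 ± 0.37, limma adjusted p = 0.00101). In the egg it had 3.22 TPM in Taira and 1.18 TPM in Ueno, the lowest levels of the IFT models outside ift74 and ift81.L. The BBSome subunit bbs4.S had 10.7 TPM in Taira and 1.66 TPM in Ueno at stage 20, against 1.85 and 0.73 TPM at stage 12 (1.33 ± 0.38), and 12.1 and 4.79 TPM in Taira and Ueno at stage 15. It was the BBS model with the lowest egg level of those that passed the filter.

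The 9 regulators moved in different directions at the neurula. The L copy rfx4.L (Xelaev18016854m) had 17.8 TPM in Taira and 12.3 TPM in Ueno at stage 15, against 2.57 and 1.58 TPM at stage 12 (2.38 ± 0.39, limma adjusted p = 0.000677), and was listed at 0 in both eggs. The rfx6.L model, a factor better known from the endoderm and endocrine pancreas than from cilia, had 7.72 and 1.45 TPM at stage 15 in Taira and Ueno, against 0.31 and 0 TPM at stage 12. The rfx2 copies were not called at stage 20 (-0.21 ± 0.40 for rfx2.L and -0.82 ± 0.42 for rfx2.S), and neither were rfx3.1 (-0.05 ± 0.21) and rfx3.L (-0.04 ± 0.24). Cyclin O fell: ccno.L had 3.23 TPM in Taira and 3.55 TPM in Ueno at stage 20, against 41.1 and 31.0 TPM at stage 12 (-3.06 ± 0.43, limma adjusted p = 0.00011). At stage 15 it still had 19.2 and 41.5 TPM in Taira and Ueno and was not called against stage 12 (-0.33 ± 0.43).

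**Figure D3:**
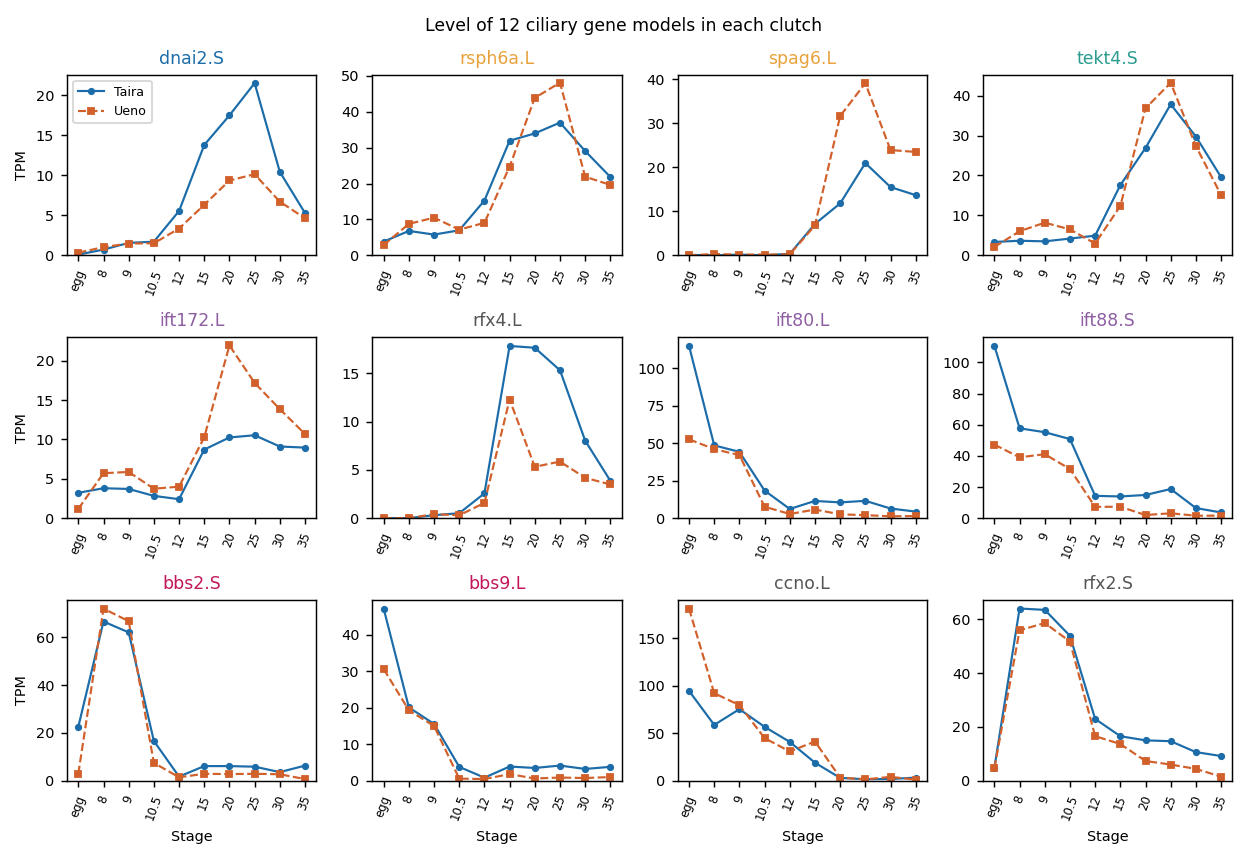
TPM (y axis, from 0) of 12 models at each stage from egg to stage 35 (x axis), with the Taira clutch as a solid blue line and the Ueno clutch as a dashed orange line. The first 6 panels show models called higher in the neurula, which are lower at each stage up to 12 than at stage 20 in both clutches. Of these, rsph6a.L already had 15.3 TPM in Taira and 9.06 TPM in Ueno at stage 12. The last 6 panels show models that are highest in the egg or blastula.

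With values as deposited and the egg threshold of 2 TPM, the share of models both maternal and higher in the neurula was near that over all models. Only rsph6a.L and tekt4.S were both maternal and called higher at stage 20 than at stage 12, 3.77% of the 53 models against 6.24% of all models tested. At stage 15 over stage 12 there were also 2 such models, against 3.52% of all models tested. With median-of-ratios scaling, or an egg threshold of 1 TPM, the count at stage 20 was 5. The share over all models is not given for these settings, so these counts cannot be set beside it. Another 23 were maternal and not called higher, and 13 were called higher and not maternal. The remaining 15 were neither, among them 8 of the 11 dyneins. Of the 23, 17 were called lower at stage 12 than at stage 9. The same share over all maternal models not called higher was not counted, so it cannot be read as particular to ciliary genes. No model was called lower at stage 12 than at stage 9 and then higher at stage 15, against 3.05% of all models tested. With TPM of at least 2 in both stage 8 libraries as the definition, chosen after the data had been seen, 33 models were maternal, against 59.8% of all models tested. Of these, 5 were called higher at stage 20, a count for which no share over all models is given.

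The roles were also joined into a transport group and an axonemal group, after the data had been seen. The 22 tested IFT and BBS models summed to 541 TPM in the Taira egg, 528 TPM at stage 9, 164 TPM at stage 12, 211 TPM at stage 15 and 220 TPM at stage 25 in Taira. In Ueno these sums were 289, 482, 115, 133 and 84.4 TPM at the same stages. The 22 tested dynein, tektin, radial spoke and central apparatus models summed to 49.0 TPM in the Taira egg, 75.2 TPM at stage 9, 73.3 TPM at stage 12, 187 TPM at stage 15 and 304 TPM at stage 25 in Taira, and in Ueno to 22.8, 69.9, 54.4, 110 and 274 TPM. The stage with the highest mean level was the egg, stage 8 or stage 9 for 17 of the 22 IFT and BBS models, and a stage between 15 and 30 for 17 of the 22 axonemal models. Over all models tested these shares were 44.2% and 30.2%.

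The models called higher in the neurula reached their peak at different times. Of the 17 called at stage 15 or stage 20, 8 peaked at stage 15, 3 at stage 20, 5 at stage 25 and 1 at stage 30. At stage 15, 13 of them had at least 50% of their peak mean. The 17 were chosen for being higher at these stages, which favours such peaks. Models chosen in the same way over all genes were not counted, so these peaks cannot be read as particular to ciliary genes. The tektins tekt3.S and tekt3.L were the latest, with 10.1% and 11.1% of their peak at stage 15. At stage 30, only tekt3.L was called higher than at stage 20 (1.32 ± 0.32) and only dnah12.1 lower (-0.95 ± 0.26), against 7.32% and 4.84% of all models tested. The level of tekt3.L was 36.0 TPM in Taira and 36.2 TPM in Ueno at stage 30, against 11.4 and 16.8 TPM at stage 20.

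Many of the ciliary genes fell in the late tailbud. At stage 35, 21 of the 53 models were called lower and 0 higher than at stage 25, a comparison added after the data had been seen, against 19.7% and 8.78% of all models tested. The median change was -0.91, and -0.39 over all models. The lower ones were 5 of 6 radial spoke and central apparatus models, 4 of 5 tektins, 5 of 14 IFT models, 3 of 11 dyneins, 3 of 9 regulators and 1 of 8 BBS models. With median-of-ratios scaling 18 of the 53 were lower, against 3922 of the 27777 models tested. Among the 18 were 3 of the 6 radial spoke and central apparatus models and 2 of the 5 tektins. The largest fall was that of rsph3.L, with 3.43 TPM in Taira and 1.17 TPM in Ueno at stage 35, against 32.2 and 7.72 TPM at stage 25 (-2.46 ± 0.41, limma adjusted p = 0.000719). The stage 35 library of Ueno has the fewest models above 0, and 15 of the 53 models were listed at 0 in it, 7 of them among the 21 called lower. Without it, or without the stage 25 library of Taira, far fewer models were called lower, both among the 53 and over all models tested. The share among the 53 was then no larger than that over all models tested. In the second Ueno series none of the 53 was listed at 0 at stage 35, and all 21 were lower than in the stage 25 Ueno library. That stage 25 library also took part in choosing the 21, and the share over all models was not counted, so this is no separate support. Adding the second series gave 29 lower calls among the 53, against 7708 of 27976 models tested. With library weights 4 of the 53 were called lower, against 1950 of 27777.

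Over the whole interval, 23 of the 53 models were called higher and 13 lower at stage 20 than in the egg, against 37.8% and 24.7% of all models tested. The largest rises were those of spag6.L (4.27 ± 0.36), tekt3.S (3.82 ± 0.35), rsph9.L (3.61 ± 0.36) and dnai2.S (3.51 ± 0.35). The largest falls of the transport genes were those of bbs9.L (-3.82 ± 0.40), ift80.L (-3.62 ± 0.43), ift140.L (-3.41 ± 0.50) and ift88.S (-3.41 ± 0.45). Limma adjusted p-values of these 8 changes ran between 2.21e-07 for spag6.L and 4.18e-05 for ift140.L. These models kept their direction under each scaling tried, while ift74.S was 0.84 ± 0.34 as deposited and -0.11 with quantile normalization.

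Both copies were measured in 11 L and S pairs, 10 of which could be tested. Near-identical copies can share reads, so the split between them is uncertain. Over stages 12 to 35, L was called higher in 6 pairs (ccno, dnah11-like.1, ift81, rfx4, spag6 and tekt3) and S in 3 (dnah3, rfx2 and tekt1), against 51.3% and 33.2% of all 6567 pairs tested, while ift74 was not called. The ratio of L to S changed at stage 20 against stage 12 in 4 pairs, against 37.1% of all pairs.

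The copies of spag6 parted most. The log2 ratio of L to S rose by 3.12 ± 0.44 at stage 20 over stage 12 (limma adjusted p = 0.000124). The maternal copy was spag6.S, with 2.62 TPM in the Taira egg and 2.83 TPM in the Ueno egg, and it had 4.06 and 5.75 TPM at stage 20 in Taira and Ueno, against 1.83 and 2.63 TPM at stage 12. The copy called higher in the neurula was spag6.L, at 0.12 and 0 TPM in the Taira and Ueno eggs. In tekt3 the L copy had the higher egg level, and the ratio of L to S changed by -2.31 ± 0.34 (limma adjusted p = 0.00019). Model tekt3.L had 2.58 TPM in the Taira egg and 1.33 TPM in the Ueno egg, so it did not meet the maternal definition, and tekt3.S had 0 and 0.23 TPM there. Unlike in spag6, both copies were called higher at stage 20 than at stage 12 (1.51 ± 0.32 for tekt3.L and 3.82 ± 0.35 for tekt3.S). For dnah3, an inner arm heavy chain, L was the copy seen early, with 3.94 and 1.55 TPM at stage 9 in Taira and Ueno, and S the one seen later, with 2.97 and 0.74 TPM at stage 25; its ratio changed by -1.40 ± 0.49. The ccno ratio changed by -0.84 ± 0.27, with both copies falling.

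**Figure D4:**
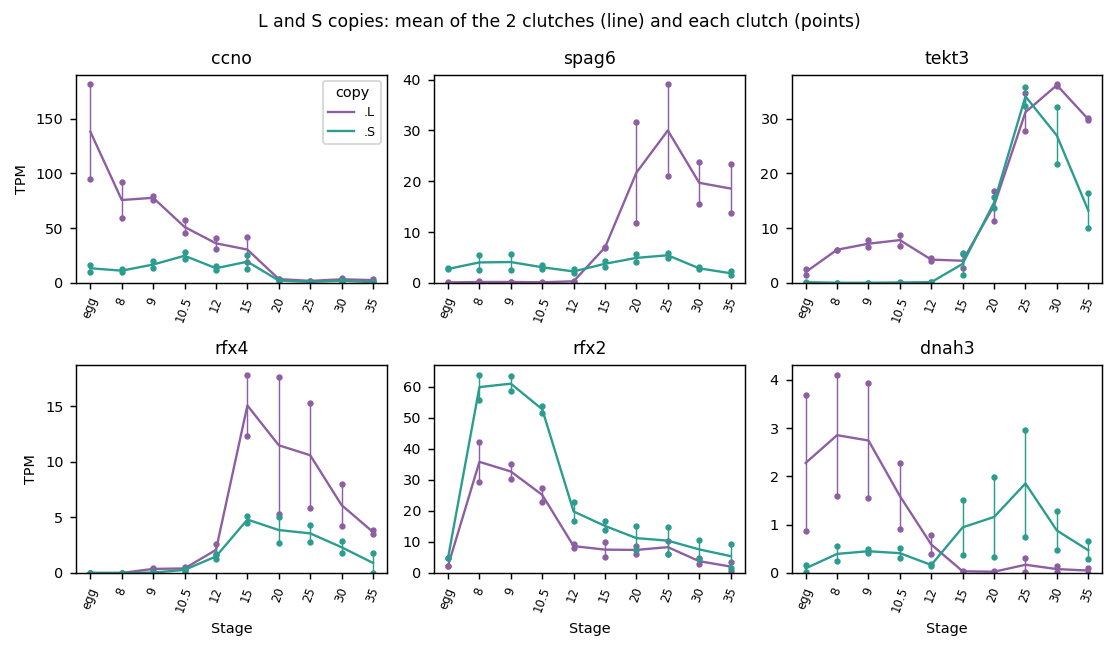
TPM (y axis, from 0) of the L copy (purple) and the S copy (green) of 6 pairs at each stage (x axis); lines are means of the 2 clutches and points are the clutches. In spag6 and dnah3 the copy that leads from stage 15 on is not the copy that leads in the egg and blastula. In spag6 both copies are seen from stage 15 on. In tekt3 the S copy is near 0 to stage 12.

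At each of the 10 stages, most of these genes had lower levels in Ueno than in Taira, and their median difference was below that over all models. At stage 20, 45 of the 53 models were lower in Ueno than in Taira (84.9%, against 71.7% of all models tested), and the median difference was -1.02 on the log2 scale, against -0.52 over all models tested. At stage 25 these were 46 models, -1.14 and -0.56, at stage 15 50 models, -0.57 and -0.28, at stage 9 33 models, -0.07 and -0.05, and in the egg 40 models, -0.38 and -0.14. The 8 models that were higher in Ueno at stage 20 were spag6.L, spag6.S, rsph9.L, rsph6a.L, ift172.L, tekt4.S, tekt3.L and ccno.L. From stage 12 to stage 20, 14 of the 53 models rose in Taira and fell in Ueno, against 20.8% of all models with opposite signs in either order. The summed level of 14 models that mark multiciliated cells was 85.1 TPM in Taira and 58.3 TPM in Ueno at stage 20. Members of this list went both ways. The foxn4.L model had 13.96 TPM in Taira and 3.55 TPM in Ueno. No foxj1 model was lower in Ueno, with 16.27 and 16.31 TPM for foxj1.S and 1.77 and 5.0 TPM for foxj1.2.S in Taira and Ueno. The part of these markers in the difference between the clutches was not tested.

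**Figure D5:**
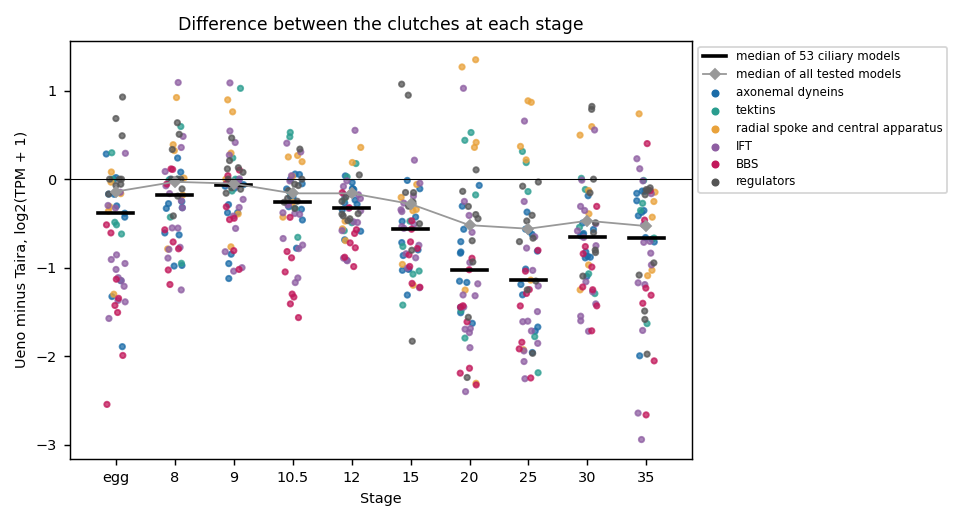
Difference between the clutches, Ueno minus Taira, in log2(TPM + 1) (y axis) for each of the 53 models (points, coloured by role) at each stage (x axis); black bars are their medians and grey diamonds the medians of all models tested. At each stage the black bar lies below the grey diamond and most points below 0, and at stages 20 and 25 the bars are lowest, with a few radial spoke, central apparatus, tektin and IFT points above 0.

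In the oocyte libraries, which have no replicate, 23 of the 53 models had TPM of at least 2 in all 3 classes, and 19 of the 25 maternal models did. The share over all models was not counted, so these counts cannot be read as particular to ciliary genes. The transport genes were seen there too: bbs2.S had 21.6 TPM in stage 1-2 oocytes, 66.7 TPM in stage 3-4 oocytes and 68.8 TPM in stage 5-6 oocytes, against 3.04 TPM in the Ueno egg. The IFT-B subunit ift88.S had 4.35, 14.6 and 10.6 TPM in these classes, against 47.3 TPM in the Ueno egg. Cyclin O was low in the smallest oocytes: ccno.L had 6.47, 58.2 and 18.1 TPM, against 181 TPM in the Ueno egg. At stage 40 in Taira, 16 of the 17 neurula-induced models were lower than at stage 25 in Taira. The exception was tekt3.L, with 29.9 TPM at stage 40 against 27.7 TPM at stage 25. This comparison has no replicate, and its share over all models was not counted, so it cannot be read as particular to these models. The 17 models were also chosen for being higher in the neurula, and the part of that choice in the later fall was not tested.

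Other genes of the pathway were followed in 7 lists. The models foxj1.L and foxj1.S of the transcription factor foxj1 were called higher at stage 12 than at stage 9, before most axonemal genes were. This factor drives the motile cilium program. Its S copy foxj1.S had 44.8 TPM in Taira and 21.7 TPM in Ueno at stage 12, against 0.96 and 0.35 TPM at stage 9 (4.31 ± 0.34, limma adjusted p = 4.69e-07). The L copy foxj1.L had 19.2 and 11.2 TPM at stage 12 in Taira and Ueno, against 0.57 and 0.28 TPM at stage 9 (3.47 ± 0.30). Neither was called between stages 12 and 15 (-0.05 ± 0.34 for foxj1.S and -0.41 ± 0.30 for foxj1.L), over which 15 of the 53 models rose. The foxj1.2 models had higher levels at stage 15 than at stage 12. Those of foxj1.2.L were 7.51 and 7.72 TPM in Taira and Ueno against 5.09 and 2.12 TPM. Those of foxj1.2.S were 4.66 and 6.6 TPM against 3.62 and 2.08 TPM. The multiciliated cell factor foxn4.L also rose at stage 12 over stage 9 (2.06 ± 0.45), whereas myb.L (-0.26 ± 0.40) and myb.S (0.80 ± 0.38) were not called. Of the 17 tested models of multiciliated cell regulators, 6 were higher and 7 lower over this interval, against 13.4% and 36.1% of all models tested. Among the lower ones were tp73.L (-2.30 ± 0.25), e2f5.L (-3.79 ± 0.34) and e2f4.L (-3.68 ± 0.36).

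The copies of the early regulator gmnc peaked at different stages and were both listed at 0 at stage 15. The model gmnc-like.L had 3.51 TPM in Taira and 4.06 TPM in Ueno at stage 12, against 1.15 and 0.52 TPM at stage 9 (1.40 ± 0.38). At stage 10.5 it had 2.01 TPM in Taira and 4.76 TPM in Ueno, and at stage 10 in the second Ueno series 11.39 TPM. It was listed at 0 in both clutches at stage 15 (-2.26 ± 0.38 over stage 12, limma adjusted p = 0.000911). The model gmnc-like.S had 0.73 TPM in Taira and 0.26 TPM in Ueno at stage 12, against 3.15 and 1.73 TPM at stage 9 (-1.19 ± 0.27). At stage 20 against stage 12, 3 of the 17 regulators were called higher and 1 lower, and 2 each with quantile normalization, against 19% and 18.4% of all models tested.

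At stage 20 against stage 12, the other axonemal genes gave 12 higher and 4 lower of 30 tested, against 19% and 18.4% of all models tested, which are also the shares to set beside the lists that follow. Among the higher ones were lrrc23.S (2.74 ± 0.69) and wdr16.S (2.46 ± 0.52), and among the lower ones ropn1l.L (-1.45 ± 0.27). Dynein assembly and docking genes gave 4 higher and 1 lower of 14, with zmynd10.L, an assembly factor, at 2.03 ± 0.35 and dyx1c1.L, another assembly factor, at -2.47 ± 0.41.

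Transition zone and basal body genes gave 1 higher and 8 lower of 19 at stage 20 against stage 12, and 0 higher and 5 lower at stage 15, when the shares over all models were 12.6% and 10.6%. Among the lower ones, the transition zone gene nphp4.L fell by 2.17 ± 0.39. Centriole amplification genes gave 2 higher and 4 lower of 12 at stage 20, but 3 higher and 0 lower at stage 15 against stage 12 (median 0.30). At stage 20 ccdc78.1, a deuterosome protein, rose by 2.55 ± 0.29 and sass6.L, a cartwheel protein of new centrioles, fell by 2.35 ± 0.49. The IFT genes under other names and the motors gave 1 higher and 2 lower of 20 as deposited, 2 and 2 with median-of-ratios scaling and 1 and 5 with quantile normalization, and the BBSome partners 1 higher and 2 lower of 11. Medians of these lists at stage 20 over stage 12 were 0.69 for the other axonemal genes, 0.25 for dynein assembly, -0.03 for the IFT genes under other names (0.05 with median-of-ratios scaling), -0.11 for the BBSome partners, -0.64 for the transition zone and -0.75 for centriole amplification, against 0.00 over all models tested.

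Markers of the cell types that carry these genes, and of their neighbours, were read in the same libraries. The multiciliated cell list summed to 119 TPM in Taira and 98.5 TPM in Ueno at stage 15, against 108 and 53.8 TPM at stage 12, with 5 of 14 models called higher and 1 lower. Both gmnc-like models of that list were listed at 0 at stage 15. The list for small secretory and goblet cells summed to 1289 TPM in Taira and 983 TPM in Ueno at stage 15, against 109 and 70.8 TPM at stage 12. Of these sums, itln1.L alone had 1193 and 924 TPM at stage 15 in Taira and Ueno, against 41.2 and 18.0 TPM at stage 12, and foxa1.L and foxa1.S were not called (0.46 ± 0.35 and 0.11 ± 0.48). The list for ionocytes summed to 255 and 206 TPM at stage 15 in Taira and Ueno against 99.8 and 43.1 TPM at stage 12. Of its 6 tested models 4 were called higher and 0 lower. Of these sums, ca2.L had 85.8 and 39.7 TPM at stage 15 in Taira and Ueno, against 0.38 and 0.12 TPM at stage 12. The rhcg.L model had 5.64 and 3.94 TPM against 12.3 and 5.99 TPM. In Taira foxi1.S was lower (28.9 against 38.3 TPM), and in Ueno it was higher (52.6 against 16.6 TPM). The list for floor plate and notochord summed to 139 and 191 TPM at stage 15 in Taira and Ueno against 208 and 250 TPM. Of the 8 floor plate and notochord models 2 were called higher (shh.L by 2.39 ± 0.32 and nog.1 by 0.94 ± 0.30) and 1 lower (foxa2.S by -0.75 ± 0.24), while not.L (-1.04 ± 0.44) and not.S (-0.75 ± 0.52) were not called. Neuron markers summed to 58.9 and 28.9 TPM at stage 15 in Taira and Ueno, against 14.5 and 7.59 TPM at stage 12. Of the stage 15 sums, tubb2b.L had 39.6 and 22.2 TPM and tubb2b.S had 14.1 and 6.09 TPM. Among the 5 tested neuron models 2 were called higher and 0 lower. The part of each cell type in the rise of the ciliary models was not tested.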

How the data were processed

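The table deposited by the authors holds TPM for each gene model in 28 libraries, and no further scaling was applied. The submitters' processing notes name the tools RSEM 1.2.19 and BWA 0.7.10. Per the labels, the RNA was polyA-selected and the libraries were not strand-specific, so overlapping antisense transcripts cannot be told apart. Settings and depth are not given in the sources used here. Expression was compared with limma 3.58.1 in R 4.3.3 on log2(TPM + 1), with the stage as a factor and the clutch as an additive block, in 20 libraries (9 residual degrees of freedom), with p-values adjusted by Benjamini and Hochberg over 27777 models per contrast. For pairs of copies, the log2 ratio of L to S entered the same model over 6567 pairs with a summed TPM of at least 2 in at least 2 libraries. All tests were two-sided, and the methods were tested on simulated data. The labels give a clutch and no culture or animal number. With the clutch as a block, p-values measure how far changes between stages differ between the 2 clutches, and not the constant difference between them.

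The clutch pairs the libraries: over 45 pairs of stages the differences between the clutches correlated across models with a median of 0.415 (0.173 to 0.879), and all were over 0.1. The genes and the lists were chosen with earlier results of these data known. Named genes were all ccno and rfx models and, in the other role groups, up to 5 called models with the largest change in each direction for stage 20 against stage 12 and stage 12 against stage 9, up to 3 in the other planned comparisons, and the highest egg and stage 20 levels; models outside this rule that are named were chosen after their values were seen. Alternatives were other pseudocounts, filters and scalings, no block, added libraries and libraries left out. The planned comparison of promoter motifs was not run, since promoter sequences were not used here, and no coordinates are given because the reference table follows another assembly.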

Additional observations from a re-analysis of the deposited data

Results flagged for a closer look

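From stage 12 to stage 20, 14 of the 53 models rose in Taira and fell in Ueno, with 1 library per clutch and stage. Over all models tested, 20.8% had opposite signs in either order, and the share in this order alone was not counted. This difference between the clutches was not tested. Among the regulators, rfx3.L changed by -0.22 in Ueno and 0.14 in Taira at stage 20 over stage 12 on the log2 scale. Also opposite in sign was ccno.S at stage 12 over stage 9, at -0.74 in Ueno and 0.14 in Taira. Neither difference was tested, and neither model was called in the limma fit (-0.04 ± 0.24 for rfx3.L and -0.30 ± 0.43 for ccno.S).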

How the results depend on the processing

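Of the 81 changes of named models, 75 were called, and 33 of these were called in the same direction in every alternative run for them. Among 1203 values under alternatives, 1013 kept direction and side of the threshold, 179 lost the call and 11 turned in sign. The turned ones were rsph6a.L at stage 9 over egg (-0.10 with median-of-ratios scaling, -0.42 with quantile normalization), tekt3.L at stage 9 over egg (-0.03 with quantile normalization), ift74.S at stage 20 over egg (-0.11 with quantile normalization) and ccno.S at stage 12 over stage 9 (0.60 with median-of-ratios scaling, 0.75 with quantile normalization, 0.02 without the stage 12 library of Ueno). Further ones were rfx6.L at stage 12 over stage 9 (-0.21 without the stage 9 library of Taira), rfx3.1 at stage 20 over stage 12 (0.00 without the stage 20 library of Taira) and rfx3.L at stage 20 over stage 12 (0.02 without the stage 12 library of Ueno, 0.10 without the stage 20 library of Ueno). Values with a library left out ran between -0.63 and 0.02 for ccno.S and between -0.17 and 0.10 for rfx3.L in these comparisons. The causes were not tested.

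Counts of called models out of 53 moved by over 1.5 times as follows. With median-of-ratios scaling, stage 9 over egg gave 8 higher and 10 lower and stage 12 over stage 9 gave 6 higher and 10 lower. Over all 27777 models tested that scaling gave 4652 and 6014, and 6431 and 5522, in the same order. With quantile normalization the counts out of 53 were 4 and 8, and 5 and 12, while stage 30 over stage 20 gave 3 lower and stage 20 over egg 14 higher. Over all 27777 models tested these were 4239 and 4368, 5457 and 6737, 2272 and 8283. Median-of-ratios scaling gave 5 models both maternal and called higher in the neurula, against 2 as deposited. An egg threshold of 1 TPM gave 5 and one of 5 TPM gave 0, with 13 maternal and not called higher, and the stage 8 definition gave 5. Shares over all models are not given for these alternative counts. A pseudocount of 0.1 gave 1 lower at stage 9 over egg and 0 lower at stage 30 over stage 20, against 1036 and 1084 of 27777. A pseudocount of 5 gave 1 higher at stage 12 over stage 9 and 2 higher at stage 30 over stage 20, against 3426 and 1863 of 27777. With stage 15 in place of stage 20 no model was lower than at stage 12 (0), and library weights, which came out equal within a stage, gave 0 lower at stage 30 over stage 20 and 4 lower at stage 35 over stage 25. Over all 27777 models tested library weights gave 1081 and 1950 lower there. Quantile normalization gave 1 higher at stage 35 over stage 25, against 4084 of 27777.

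Adding both stage 40 libraries, 1 of which is the egg-like one, gave 15 higher and 0 lower at stage 9 over egg. It gave 1 higher at stage 12 over stage 9, and 7 higher and 1 lower at stage 20 over stage 12. At stage 30 over stage 20 it gave 0 and 0, and at stage 15 over stage 12 it gave 5 higher. Over 28196 models tested these counts were 7816 and 181, 2556, 2359 and 2141, 175 and 216, and 1186, in the same order. This run also gave 25 of the 179 lost calls of named models. Without the replicate block by clutch, whose pairing comes from the labels, stage 9 over egg gave 12 higher and 1 lower. Stage 12 over stage 9 then gave 1 higher and 14 lower, and stage 30 over stage 20 gave 0 lower. Stage 20 over egg gave 15 higher, stage 15 over stage 12 gave 4 higher and stage 35 over stage 25 gave 2 lower. Over 27777 models tested these counts were 7389 and 489, 2810 and 7306, 438, 8207, 1518 and 1308, in the same order.

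Leaving out 1 library of a comparison, or the stage 35 library of Ueno, which shares the fit, gave 13 to 24 higher and 0 to 4 lower at stage 9 over egg, 1 to 3 higher and 14 to 25 lower at stage 12 over stage 9, 9 to 17 higher and 2 to 5 lower at stage 20 over stage 12, 0 to 1 higher and 0 to 1 lower at stage 30 over stage 20, and 14 to 24 higher at stage 20 over egg. It gave 5 to 15 higher at stage 15 over stage 12, 2 to 20 lower at stage 35 over stage 25, and 2 to 4 pairs with a changed ratio of L to S. The comparison's own libraries alone gave 13 to 23 higher at stage 9 over egg, 14 to 22 lower at stage 12 over stage 9, 14 to 23 higher at stage 20 over egg and 5 to 12 higher at stage 15 over stage 12. Where a stage keeps 1 library, that library is assumed to vary like those of the other stages. With 2 libraries a stage and unknown depth, changes of models with low TPM are the least certain. The comparison of promoter motifs was not run.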
